A study of Caenorhabditis elegans with 45 samples.

Results

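When dauer larvae of Caenorhabditis elegans are given food, they leave diapause, resume feeding and later molt. The 6 libraries described here cover hours in which the expression of many cuticle genes climbed steeply. They are the libraries taken at 4, 5 and 6 h and at 7, 8 and 9 h after food, chosen by the hour in their titles, out of 45 libraries in the series and 22 in the course of dauer exit. The question was how the earlier window differed from the later one, above all in genes for cuticle synthesis and growth.

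The series measured polyadenylated RNA of whole worms by RNA-seq in 3 courses with 1 library per time point. Besides dauer exit there were 16 libraries of N2 raised from hatched first-stage larvae without diapause and 7 of the strain glp-4(bn2). Both windows were N2, the standard wild-type strain, and the labels name no transgene or mutation. All 6 samples were dauer larvae returned to plates seeded with the food bacterium OP50, with the moment of feeding as hour 0, and they differed in nothing labelled other than the hour. There was no library of unfed dauer larvae in the comparison, so the earlier window is a fed group and not a diapause control. Each hour is 1 library of pooled animals. The 3 hours of a window stand in for replicates, so the spread within a window holds the change from hour to hour as well as any difference between cultures.

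The worm cuticle is a collagen-rich extracellular coat made by the epidermis and replaced at each molt. Before the old cuticle is shed, the epidermis lays down a temporary precuticle, then secretes collagens in a fixed order, with the collagens that pattern the circumferential furrows among the early ones. Procollagen chains are hydroxylated and folded in the endoplasmic reticulum, exported in coated vesicles, cut by proteases and cross-linked. Transcription factors such as NHR-23 and the Period homologue LIN-42 are expressed in waves that accompany each larval stage.

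The 6 libraries held between 18521397 counts at 6 h and 22691330 at 5 h. The correlation of log2 CPM (each count scaled by its library total) between neighbouring hours ran from 0.9915 for 4 and 5 h to 0.9733 for 7 and 8 h, and it was 0.8459 for 4 and 9 h. No pair came near to sampling noise, so no library was treated as a repeat of another. Marker genes of epidermis, body-wall muscle, pharynx, intestine, neurons and germline were at 1 CPM or more in all 6 libraries. Of 5 genes listed as dauer-stage markers, col-40, col-2, cut-1 and hsp-12.6 were at most 0.540 CPM in the 6 libraries, whereas daf-9 was at 15.0 to 45.5 CPM. Those other than daf-9 were already at 1.97 CPM or less at 1 h, so their low level is not particular to these hours. In RNA of whole animals, fewer cells of a type and less RNA per cell cannot be told apart.

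Of 13229 genes with enough counts to test, 770 rose (5.82%) and 567 fell (4.29%) from 4 to 6 h to 7 to 9 h. The test was edgeR's quasi-likelihood F-test with TMM scaling and Benjamini-Hochberg adjustment, and a gene was called at an adjusted p under 0.05. At a difference of at least 1 on the log2 scale 455 rose (3.44%) and 150 fell (1.13%). All calls had adjusted p-values between 0.0463 and 0.05, so the list as a whole sits just under the threshold. When the library of 4, 5 or 9 h was left out no gene passed, and when 8 h was left out 5 rose and 0 fell, whereas 1444 rose without 6 h and 1633 without 7 h. A fold difference here is always fitted and on the log2 scale, and the median over all tested genes was -0.003. A standard error (SE), where given, was derived from the F-test and the fit without edgeR's prior count. It is therefore only approximate for the printed difference. For genes with almost no counts at 4 to 6 h that difference depends on the prior count. The hourly CPM are thus given first and are the values to read.

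Most of the largest rises among called genes were in cuticle genes. The ranking took called genes with separate windows and a mean of at least 10 CPM in the higher window. Among the 10 with the largest fitted rise there, 8 were collagens (col-17, col-90, col-41, rol-6, dpy-5, dpy-13, lon-3 and dpy-4). The others were the uncharacterised genes F41F3.3 and F33D4.6. Early levels of these genes were low, so their order depends on edgeR's prior count. The collagen rol-6 (WBGene00004397, chromosome II, 8733050 to 8734239, build WBcel235) is known for alleles that twist the body into a roller. It was at 0, 0.0881 and 0.324 CPM at 4, 5 and 6 h, and at 69.5, 600.1 and 1509 CPM at 7, 8 and 9 h. Thus the highest value of the early window was 6 reads and the lowest of the late window 1385 reads, with each later hour above the one before. The fitted difference of rol-6 was 12.49 (SE 1.79, edgeR adjusted p = 0.0463).

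Other collagens of body shape followed the same climb. SQT-3 (WBGene00005018, chromosome V, 12352745 to 12354320), a collagen whose mutants are short or roll, had sqt-3 mRNA at 1.41, 1.15 and 4.37 CPM early and 287, 1843 and 3506 CPM late (9.78, SE 1.36, edgeR adjusted p = 0.0463). The collagen gene lon-3, whose loss makes worms longer, was at 0.0469, 0.132 and 1.08 CPM early and 150, 1046 and 1519 CPM late (11.22, SE 1.59, edgeR adjusted p = 0.0463). The gene dpy-13, whose mutants are short and stout, was at 0.188, 0.353 and 0.270 CPM early and 38.9, 984 and 3076 CPM late (12.38, SE 2.04, edgeR adjusted p = 0.0463). In each of these the windows did not overlap, and 9 h was the highest of the 6 libraries. By reads, col-17 went from 0, 0 and 2 at 4 to 6 h to 406, 12865 and 40529 at 7 to 9 h.

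Furrow collagens came on earlier and had already passed their top by 9 h. These 6 collagens (dpy-2, dpy-3, dpy-7, dpy-8, dpy-9 and dpy-10) build the circumferential furrows, and their mutants are dumpy. The gene dpy-7 was at 0.328, 9.52 and 85.6 CPM at 4, 5 and 6 h, and at 413, 855 and 250 CPM at 7, 8 and 9 h. The gene dpy-10 was at 0.375, 2.38 and 59.5 CPM early and 519, 890 and 205 CPM late. Both were highest at 8 h and, with no overlap between windows, were still far above 6 h at 9 h. Their fitted differences of 4.07 (SE 1.69) and 4.77 (SE 1.83) did not pass the edgeR test (adjusted p = 0.134 and 0.113). Only dpy-8 (WBGene00001070, chromosome X, 5148804 to 5150476) of the 6 rose, from 0.0469, 0.176 and 2.27 CPM to 589, 1293 and 322 CPM (9.91, SE 1.52, edgeR adjusted p = 0.0463). It was the furrow collagen with the lowest level at 6 h, although it had already gone from 4 reads at 5 h to 42 at 6 h. All 6 furrow collagens were highest at 8 h among hours 4 to 12.

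**Figure D1:**
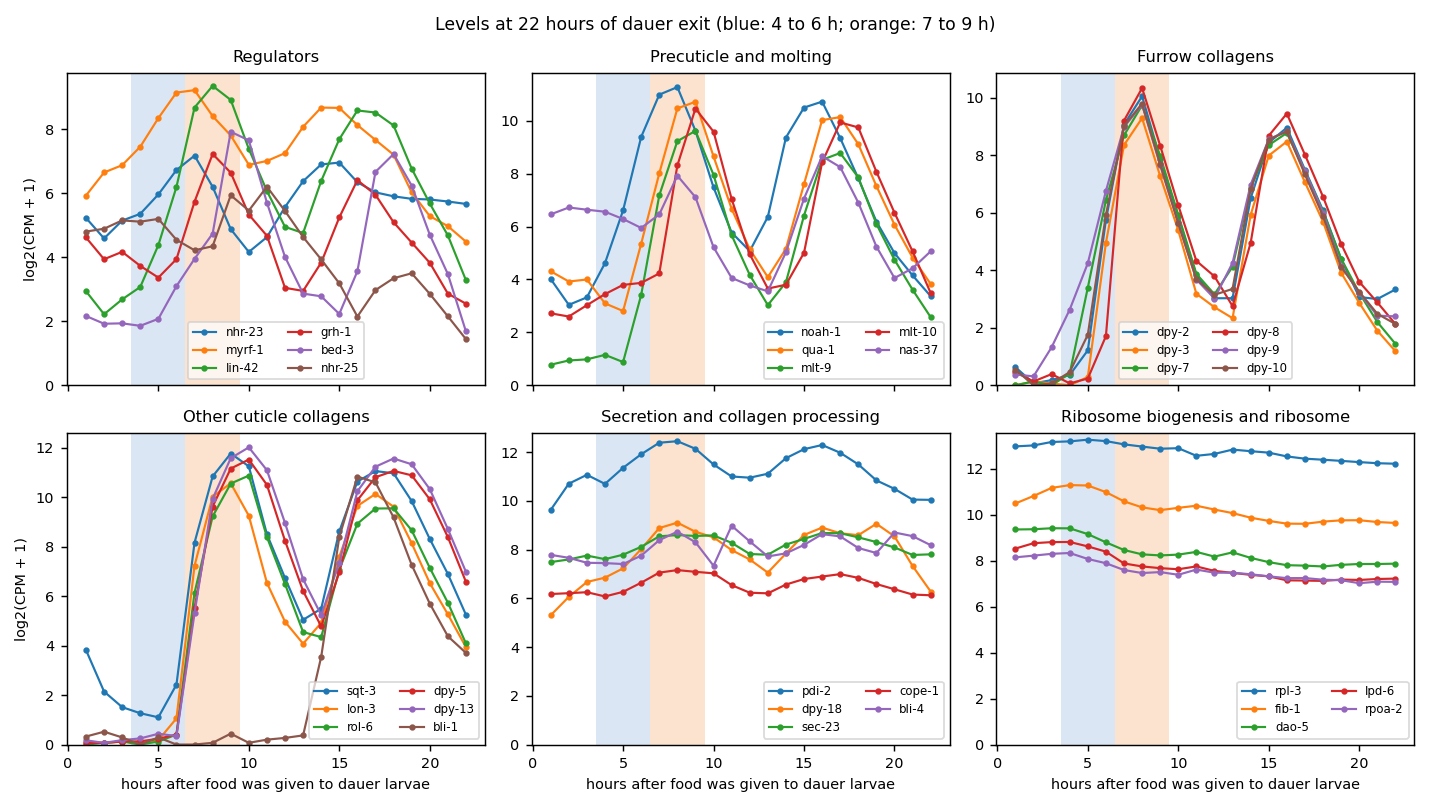
CPM of named genes, as log2(CPM + 1), at each of 22 hours after food, 1 point per library, with the 4 to 6 h window in blue and the 7 to 9 h window in orange. Furrow collagens peak at 8 h and again later in the course, other collagens climb through 9 h, bli-1 stays near 0 until after the windows, and fib-1, dao-5, lpd-6 and rpoa-2 are lower in the late window.

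The whole collagen family shows the size of the onset. Summed over the 176 cuticle collagen genes in the table (the 6 furrow collagens, 14 others with mutant names and 156 with col symbols, taken by symbol), collagen reads made up 0.0307%, 0.0493% and 0.0978% of all counts at 4, 5 and 6 h. At 7, 8 and 9 h they made up 0.521%, 1.90% and 3.43%. The share thus grew at every step, and the step from 6 to 7 h was the largest in ratio. The number of collagen genes at 10 CPM or more was 8, 9 and 16 at 4, 5 and 6 h, 31, 39 and 61 at 7, 8 and 9 h, 70 at 10 h and 75 at 11 h. At no hour of the course did 53 of the 176 reach 10 CPM.

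Of the 176 collagens 80 had enough counts to be tested, and since a gene can pass that filter through its late window alone, counts over the 80 do not describe the family. Among the 80, 19 rose and 0 fell, against 5.82% and 4.29% of all tested genes. At an unadjusted p under 0.05, 45 were higher and 2 lower, against 20.3% and 18.8% of all tested genes. DESeq2 called 42 of the 80 higher and 1 lower, against 2539 and 2034 of all 13229 tested genes. After TMM scaling the windows did not overlap in 44, higher in the later window, and in 1, lower, against 23.8% and 23.1% of all tested genes. The median fitted difference of the 80 was 3.78. The 96 untested collagens include 14 with no read in any of the 6 libraries, 7 that had reached 10 CPM at 9 h, and 51 that reached 10 CPM at some hour from 10 to 22 h.

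Some collagens went the other way within the 6 h. The gene col-176 was at 2.91, 31.2 and 76.4 CPM at 4, 5 and 6 h and at 31.4, 10.3 and 3.61 CPM at 7, 8 and 9 h (-1.23, SE 1.21, edgeR adjusted p = 0.475). The gene col-42 was at 15.2, 46.6 and 79.3 CPM early and 27.2, 5.31 and 3.21 CPM late (-1.93, SE 0.970, edgeR adjusted p = 0.191). These 2, picked for their shape after their values were seen, were highest at 6 h, before the furrow collagens. At the other end, bli-1, a collagen of the struts of the adult cuticle, had 0, 5, 0, 0, 1 and 8 reads from 4 to 9 h.

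**Figure D2:**
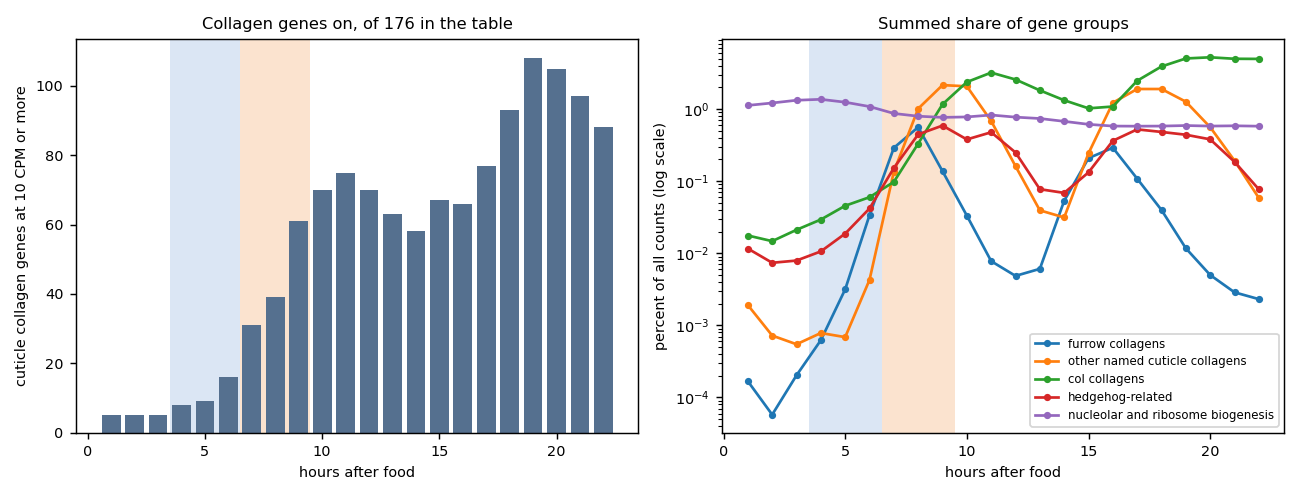
Left, number of the 176 cuticle collagen genes at 10 CPM or more at each hour after food. Right, summed percent of all counts (log scale) for furrow collagens, other named collagens, col collagens, hedgehog-related genes and nucleolar genes, 1 point per library, with the 2 windows shaded. Collagen genes on go from 8 at 4 h to 61 at 9 h, and the furrow sum is highest at 8 h with 0.559%.

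Most precuticle and molting genes were already expressed at 4 h. At that hour 14 of 23 in the table were at 10 CPM or more, against 8 of the 176 collagens. Of the 23, 10 were at that level at 1 h already, and 53 of the collagens never reached it. These counts therefore give no order of onset. NOAH-1 and NOAH-2 are zona pellucida domain proteins of the precuticle. The gene noah-1 was at 23.5, 96.6 and 668 CPM at 4, 5 and 6 h and at 2024, 2465 and 784 CPM at 7, 8 and 9 h (2.81, SE 1.24, edgeR adjusted p = 0.149). The fibrillin-related gene fbn-1 was at 60.6, 313.9 and 1132 CPM early and 1063, 182 and 40.0 CPM late (-0.18, SE 1.39, edgeR adjusted p = 0.933). So fbn-1 had its highest hours on both sides of the border between the windows, which the contrast of the windows cannot show, and noah-1 had its highest hour at 8 h. The mucin-like precuticle gene let-653 was highest at 7 h with 368 CPM against 26.4 at 4 h and 36.4 at 9 h (edgeR adjusted p = 0.561). The genes fbn-1 and let-653 were singled out after their values were seen.

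The risers of this group differed in their timing. Of 22 tested precuticle and molting genes 4 rose and 0 fell, against 5.82% and 4.29% of all tested genes, with a median difference of 2.13. The risers were mlt-9, qua-1, egg-6 and lrp-1, whose median step was 1.81 on the log2 scale from 5 to 6 h and 2.29 from 6 to 7 h. The gene mlt-9 (WBGene00008605, chromosome X, 15101786 to 15107797), named for failure to shed the cuticle when it is lost, was at 1.22, 0.837 and 9.66 CPM early and 144, 598 and 783 CPM late (7.13, SE 1.37, edgeR adjusted p = 0.0474). The hedgehog-related gene qua-1, also needed for molting, was at 7.55, 5.99 and 39.8 CPM early and 256, 1411 and 1678 CPM late (6.07, SE 1.21, edgeR adjusted p = 0.0476). Both had a late window wholly above the early one and their highest hour at 9 h. The molting gene mlt-10 lagged behind them, at 9.89, 12.9, 13.6 and 17.7 CPM from 4 to 7 h, then 316 and 1405 CPM at 8 and 9 h (5.69, SE 1.53, edgeR adjusted p = 0.0593). LRP-1 is a megalin-like epidermal receptor needed for molting, and lrp-1 rose by a smaller step, from 187, 215 and 257 CPM to 328, 499.7 and 571 CPM (1.18, SE 0.252, edgeR adjusted p = 0.0485).

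Hedgehog-related genes held 12 of the risers. Worms lack a conventional Hedgehog pathway but have many secreted hedgehog-related proteins (wrt, grl, grd, qua) and patched-related proteins (ptr), many of them made by the epidermis. Of 32 tested hedgehog-related genes, out of 58 in the table, 12 rose and 0 fell (5.82% and 4.29% of all tested genes), with a median of 3.07. As with collagens, members could pass the count filter through the late window alone. Some went the other way, since DESeq2 called 19 higher and 6 lower, against 2539 and 2034 of all 13229 tested genes. After TMM scaling 18 were wholly higher and 6 wholly lower, against 23.8% and 23.1% of all tested genes. Of 27 patched-related genes 6 rose and 2 fell. The gene wrt-2 was at 0.0469, 0.176 and 0.486 CPM early and 60.5, 571 and 199 CPM late (10.31, SE 1.32, edgeR adjusted p = 0.0463). The gene wrt-1 was at 0.609, 1.01 and 2.65 CPM early and 54.1, 746 and 476 CPM late (8.33, SE 1.31, edgeR adjusted p = 0.0463). Both were highest at 8 h, like the furrow collagens. The gene grl-15 was later, at 1.96 CPM at 7 h, 132 at 8 h and 399 at 9 h, with at most 0.220 CPM early (10.05, SE 2.21, edgeR adjusted p = 0.0488). The related gene wrt-10 was at 0.328, 5.11 and 230 CPM early and 970, 777 and 147 CPM late, highest at 7 h (edgeR adjusted p = 0.298).

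The patched-related risers included che-14 and daf-6, which act in epithelial and glial lumens. The gene daf-6 was at 2.81, 2.34 and 2.05 CPM early and 15.9, 53.8 and 57.95 CPM late (4.25, SE 0.560, edgeR adjusted p = 0.0463). Its windows did not overlap, and the late hours were ordered 7, 8, 9. Of the pharyngeal cuticle genes (abu and phat, coding for repeat proteins of the pharynx lining) 10 of the 22 in the table were tested, and some of these passed the count filter through the late window alone, so no share is read from them. The 4 that rose were phat-1, phat-2, phat-4 and abu-13. Among them abu-13 was at 2.44, 2.95 and 2.86 CPM early and 14.4, 170 and 496 CPM late (6.48, SE 1.35, edgeR adjusted p = 0.0485). Astacin metalloproteases are the enzyme family that cuts procollagen and digests old cuticle. Of 25 tested, out of 40 in the table, 2 rose (nas-4 and nas-15) and 2 fell (nas-31 and nas-32). These counts are close to the 5.82% and 4.29% of all tested genes and are no result about the family. DESeq2 called 9 of the 25 higher and 4 lower, against 2539 and 2034 of all 13229 tested genes. The gene nas-37, whose product helps to open the old cuticle, was at 93.3, 76.9 and 60.6 CPM early and 86.9, 241 and 137 CPM late, with overlapping windows (1.12, SE 0.390, edgeR adjusted p = 0.0933). Cuticlins are insoluble cuticle proteins, and 26 of the 35 in the table were tested. DESeq2 called 9 of the 26 higher and 2 lower, to be set against the same DESeq2 counts over all tested genes. In edgeR cut-6, cutl-28 and cutl-23 rose and 0 fell. Of these cut-6 and cutl-28 are also on a list of dauer cuticle genes. The gene cut-6 was at 0.422, 0.485 and 0.540 CPM early and 4.97, 21.1 and 23.4 CPM late (5.19, SE 0.714, edgeR adjusted p = 0.0463).

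Regulators of the cycle did not move as one. Of 15 tested 3 rose, lin-42, grh-1 and lin-29, and 0 fell, against 5.82% and 4.29% of all tested genes. The median of the 15 was 0.32. The gene lin-42 (WBGene00018572, chromosome II, 1233236 to 1252359) was at 7.41, 19.8 and 72.5 CPM early and 409, 654 and 483 CPM late (4.04, SE 0.894, edgeR adjusted p = 0.0488). The Grainyhead factor gene grh-1, which acts in epidermal barrier formation, was at 12.28, 9.30 and 14.4 CPM early and 52.3, 149 and 99.0 CPM late (3.16, SE 0.429, edgeR adjusted p = 0.0463). Both were highest at 8 h with separate windows. The nuclear receptor gene nhr-23, required for molting, was instead highest at 7 h, at 40.0, 61.4 and 105 CPM early and 144, 72.7 and 28.4 CPM late, and its windows overlapped (0.32, SE 0.627, edgeR adjusted p = 0.730). The gene myrf-1, for a membrane-bound transcription factor, was at 174, 325 and 566 CPM early and 596.5, 339.6 and 223 CPM late (edgeR adjusted p = 0.805). The zinc-finger gene bed-3 was late, with 25.7 CPM at 8 h and 242 at 9 h against at most 7.56 early (4.51, SE 1.29, edgeR adjusted p = 0.0654). The nuclear receptor gene nhr-25 was lowest at 7 h with 17.6 CPM and highest at 9 h with 60.3 (edgeR adjusted p = 0.808).

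The machinery that folds and exports collagen was already on and went up by less. Of 36 genes for protein secretion and folding 8 rose and 0 fell, and after TMM scaling the windows did not overlap in 30, all higher late, with a median of 0.55. Over all tested genes 5.82% rose and 23.8% were wholly higher. The 8 were coat genes and their partners. They were sec-23, sec-24.1, sec-31, sar-1 and tfg-1 of COPII-coated vesicles, which carry cargo out of the endoplasmic reticulum, and copd-1, cope-1 and copg-1 of the COPI coat. The gene sec-23 was at 194, 220.5 and 276 CPM early and 373, 386 and 377 CPM late (0.81, SE 0.151, edgeR adjusted p = 0.0474). The gene tfg-1, for an organiser of exit sites, was at 132, 155 and 190.1 CPM early and 268, 294.5 and 302 CPM late (0.95, SE 0.163, edgeR adjusted p = 0.0463). In both the early hours climbed, and the late hours were close to each other.

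At an unadjusted p under 0.05, 7 of 11 genes for collagen processing were higher and 1 lower, against 20.3% and 18.8% of all tested genes. Against 5.82% and 4.29% of all tested genes, 2 of the 11 rose and 0 fell. These were dpy-18, for a prolyl 4-hydroxylase subunit, and bli-4, for a furin-like protease. The gene dpy-18 was at 114, 149 and 259 CPM early and 472, 550.3 and 424 CPM late (1.56, SE 0.329, edgeR adjusted p = 0.0485). The gene pdi-2, coding for the protein disulphide isomerase that is the other subunit of that hydroxylase, was at 1659, 2622 and 3859 CPM early and 5355, 5592 and 4506 CPM late (1.01, SE 0.318, edgeR adjusted p = 0.0763). Its windows did not overlap and 8 h was highest. The dual oxidase gene bli-3, which cross-links cuticle proteins, was at 24.4, 25.2 and 33.1 CPM early and 39.4, 33.4 and 36.8 CPM late (0.50, SE 0.150, edgeR adjusted p = 0.0709).

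**Figure D3:**
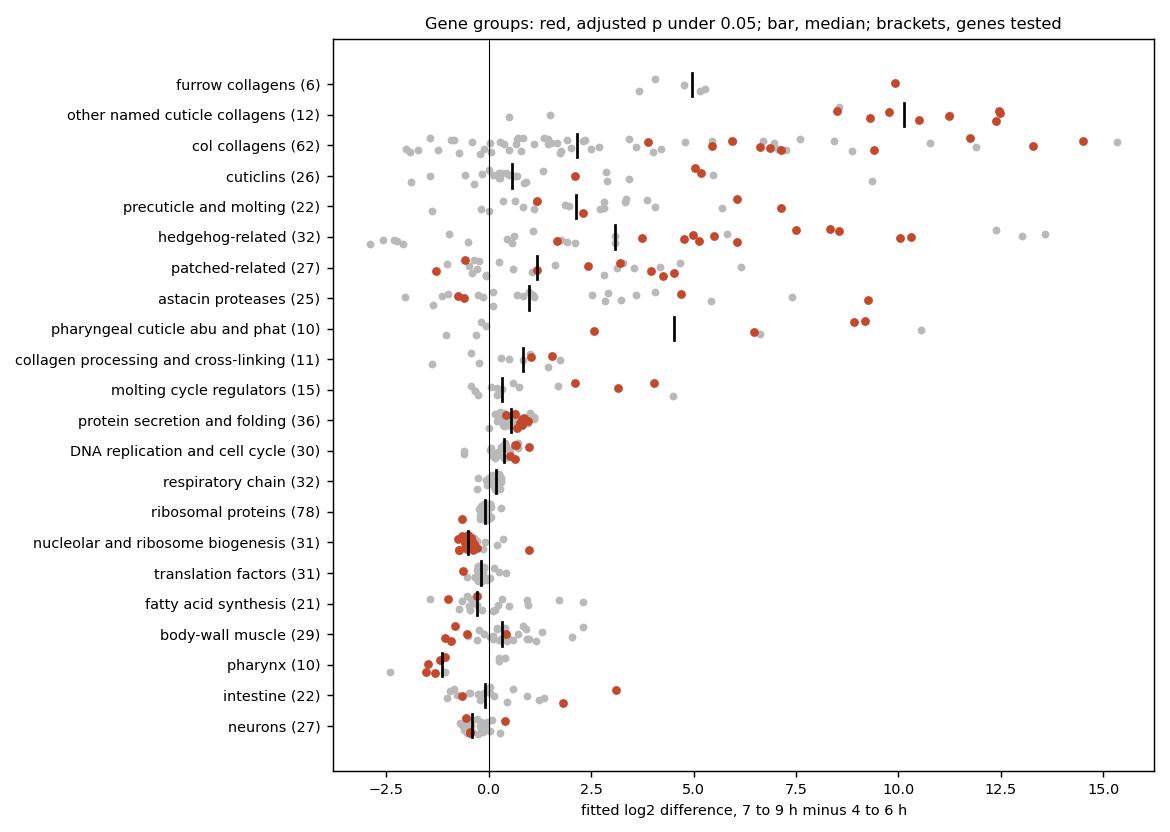
Fitted log2 difference between the windows (7 to 9 h minus 4 to 6 h) for every tested gene of each group, 1 point per gene, red where the edgeR adjusted p was under 0.05, with the group median as a bar and the number tested in brackets. Cuticle and hedgehog-related genes reach far to the right, while nucleolar genes, with a median of -0.50, lie left of 0.

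Genes of ribosome production, which mark growth, showed no restart between these windows. They were at their higher levels in the earlier one. Of 31 nucleolar and ribosome biogenesis genes 24 fell and 1 rose, and after TMM scaling 28 had a late window wholly below the early one, with a median of -0.50. Over all tested genes 4.29% fell and 23.1% were wholly lower. Summed, the 31 made up 1.36%, 1.24% and 1.08% of counts at 4, 5 and 6 h and 0.866%, 0.793% and 0.764% at 7, 8 and 9 h, after 1.12% at 1 h. The sum was therefore highest at 4 h. The gene fib-1 (WBGene00001423, chromosome V, 15000651 to 15002223), for the rRNA methyltransferase fibrillarin, was at 2485, 2455 and 2011 CPM early and 1522, 1269 and 1168 CPM late (-0.72, SE 0.121, edgeR adjusted p = 0.0463). The nucleolar protein gene dao-5 was at 675, 567 and 442 CPM early and 350.5, 307 and 298 CPM late (-0.72, SE 0.148, edgeR adjusted p = 0.0482). Genes for the large subunits of RNA polymerase I, rpoa-1 and rpoa-2, fell as well. The 1 riser, ebp-2, codes for a microtubule end-binding protein and is not a ribosome factor.

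Ribosomal protein genes differed by little in size. Of 78 tested 1 fell, rpl-24.2, and 0 rose, with a median of -0.10. At an unadjusted p under 0.05, 4 were lower and 1 higher, against 18.8% and 20.3% of all tested genes. DESeq2 called 8 lower and 1 higher, against 2034 and 2539 of all 13229 tested genes. The gene rpl-3 was at 9279, 9769 and 9357 CPM early and 8487, 7937 and 7438 CPM late (-0.16, SE 0.073, edgeR adjusted p = 0.160). In CPM the late window was wholly below the early one in 63 of the 78, and after TMM scaling in 20, with 1 wholly higher, against 23.1% and 23.8% of all tested genes. The number of separated genes thus depends on the scaling, and the direction was downward under both. The median over all genes was -0.10 with library size alone. Of 31 translation factors 1 fell, eef-1A.2, and 0 rose, with a median of -0.18. At an unadjusted p under 0.05, 17 of the 31 were lower and 2 higher, DESeq2 called 16 lower and 2 higher, and after TMM scaling 21 were wholly lower and 3 wholly higher.

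Most genes of DNA replication and cell division moved the opposite way to the nucleolar genes. Of 30 tested 5 rose (rnr-1, cdk-1, cdk-2, div-1 and pri-1) and 0 fell, against 5.82% and 4.29% of all tested genes. Their median was 0.38. After TMM scaling 16 of the 30 were wholly higher and 2 wholly lower, against 23.8% and 23.1% of all tested genes. The replication gene mcm-7 had overlapping windows and was not called (0.30, SE 0.091, edgeR adjusted p = 0.0724). The gene rnr-1, for a subunit of ribonucleotide reductase that makes DNA precursors, was at 96.5, 84.0 and 109 CPM early and 195, 203 and 139 CPM late (0.98, SE 0.168, edgeR adjusted p = 0.0463). The gene div-1, for a subunit of the polymerase that primes DNA synthesis, was at 36.5, 36.8 and 42.8 CPM early and 57.4, 59.2 and 56.5 CPM late (0.67, SE 0.093, edgeR adjusted p = 0.0463). In both the windows were separate. Of 32 respiratory chain genes 0 rose and 0 fell in edgeR, with a median of 0.17. At an unadjusted p under 0.05, 14 of them were higher and 1 lower, against 20.3% and 18.8% of all tested genes. DESeq2 called 13 higher and 1 lower, against 2539 and 2034 of all 13229 tested genes. Of 22 insulin and TOR signalling genes 2 rose, akt-1 and raga-1, and of 13 genes of the TGF-beta pathway for body size 1 fell, the receptor gene daf-4. The counts of the insulin and TOR group and of the TGF-beta group are near the 5.82% and 4.29% of all tested genes. They are no result about the pathways.

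The largest falls were outside the cuticle and growth groups. The gene K07E1.1 was at 39.7, 35.7 and 14.9 CPM early and 3.62, 0.944 and 0.802 CPM late (-3.99, SE 0.703, edgeR adjusted p = 0.0463). The zinc-finger gene bcl-11 was at 85.3, 64.3 and 44.5 CPM early and 18.6, 5.61 and 5.44 CPM late (-2.62, SE 0.554, edgeR adjusted p = 0.0485). The gene ham-1, known from asymmetric divisions of neuroblasts, was at 44.0, 57.6 and 30.2 CPM early and 14.0, 9.34 and 6.06 CPM late (-2.08, SE 0.367, edgeR adjusted p = 0.0463). All were lower at every late hour than at any early hour. The other genes of the 8 largest falls were Y105C5A.8, slc-36.5, pqn-37, C53B7.3 and best-17.

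Pharyngeal muscle genes fell together with them. Of 10 pharynx genes 5 fell and 0 rose, against 4.29% and 5.82% of all tested genes, with a median of -1.13. The group's summed share of counts was 0.316%, 0.279% and 0.216% early and 0.152%, 0.0861% and 0.0864% late. The pharyngeal myosin gene myo-2 was at 1220.0, 1089 and 868 CPM early and 616, 332 and 356.5 CPM late (-1.19, SE 0.257, edgeR adjusted p = 0.0485). The troponin gene tnt-4 was at 337, 306 and 220.0 CPM early and 142, 88.9 and 60.2 CPM late (-1.48, SE 0.323, edgeR adjusted p = 0.0488). All 5 genes that fell had their largest step from 7 to 8 h, with median steps of -0.16, -0.35, -0.53 and -0.89 from 4 to 8 h.

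Markers of the other tissues moved less evenly. Of 27 neuronal genes 3 fell (ric-4, snt-1 and unc-104) and 1 rose (snb-1), against 4.29% and 5.82% of all tested genes. The summed share of the neuronal genes ran from 0.172% at 4 h to 0.102% at 9 h. The 29 body-wall muscle genes were mixed, with a median of 0.33. Of these 4 fell (mlc-1, mlc-2, mlc-3 and tnt-3) and 1 rose (pat-6), against 4.29% and 5.82% of all tested genes. At an unadjusted p under 0.05, however, 14 were higher and 6 lower, against 20.3% and 18.8%. DESeq2 called 13 higher and 6 lower, against 2539 and 2034 of all 13229 tested genes. The body-wall myosin gene unc-54 was at 41.5, 52.7 and 74.9 CPM early and 111.9, 180.4 and 359 CPM late (2.04, SE 0.493, edgeR adjusted p = 0.0521). The summed share of the group was 0.349% to 0.445% in the 6 libraries. Of 22 intestinal genes 2 rose, ges-1 and cpr-6, and 1 fell, ifb-2, which is near the shares over all tested genes (5.82% and 4.29%). Of 23 epidermal and seam genes 5 rose and 0 fell, against 5.82% and 4.29% of all tested genes. Among the 5, wrt-1, wrt-2 and che-14 are also hedgehog- or patched-related genes counted above. The epidermal sum was 0.192%, 0.235% and 0.299% early and 0.382%, 0.560% and 0.425% late. It includes wrt-1 and wrt-2, so it is not a measure separate from the cuticle and hedgehog-related genes. The epidermal marker genes went different ways. From 4 h to 9 h lin-26 went from 50.9 to 93.3 CPM, dlg-1 from 68.6 to 80.7 and elt-3 from 45.5 to 19.4. In the 6 libraries ajm-1 stayed at 154.8 to 175.5 CPM and ceh-16 at 1.01 to 2.71 CPM. The part of tissue proportions in the cuticle and pharynx results was not tested.

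The timing of single steps does not place one switch at the border of the windows. Of the 770 genes that rose, 492 (63.9%) had their largest step between 6 and 7 h and 199 (25.8%) between 7 and 8 h, and of the 567 that fell 450 (79.4%) had it between 6 and 7 h. A contrast of these windows favours genes that step at the border. Large steps were therefore counted over all tested genes, where a gene can count at more than 1 step. With 1 CPM added, genes that went up by at least 1 on the log2 scale numbered 124, 229, 373, 425 and 321 at the 5 steps from 4 to 9 h. Genes that went down by as much numbered 40, 30, 72, 154 and 291. Collagens going up that much numbered 11, 18, 28, 35 and 38, and collagens going down 0, 2, 9, 7 and 12. The count of genes with steps of that size thus grew through the 6 hours. Upward steps were most frequent between 7 and 8 h and downward steps between 8 and 9 h. The median absolute step over all tested genes changed little, at 0.144, 0.15, 0.153, 0.146 and 0.145.

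A steady slope in the hour called more genes than the 2 windows did. In an edgeR fit with hour in place of the window, 2685 genes rose (20.3%) and 2527 fell (19.1%), among them 727 of the 770 and 543 of the 567 called between windows. Beside the hour as a covariate the window added 0 calls (348 genes at an unadjusted p under 0.05). Under the slope 43 of the 80 tested collagens rose and 1 fell, and 26 of the 31 nucleolar genes fell and 2 rose. With 3 hours a side, an exact permutation test of a single gene cannot give a p below 0.1.

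Genes that moved in these hours were compared with their timing in continuous N2, a separate set of libraries. The N2 hours are those of the sample titles, and the labels place the same worms 1 h later in development. A wave with a period of 8 h and an amplitude of at least 0.5 (log2) was called in 4116 of 15622 genes there (26.3%, edgeR adjusted p under 0.05), and 2814 of them were tested between the dauer exit windows. Of these 2814 wave genes 412 rose (14.6%) and 138 fell (4.90%). Among 10415 tested genes with no wave call, 358 (3.44%) rose and 429 (4.12%) fell. As with collagens, a wave gene could pass the count filter through 1 window alone. These shares and those by bin therefore describe tested genes only, and part of them may come from that filter. Among tested wave genes the direction followed the hour of the N2 peak. Of 478 genes with a peak between 23 and 24 h in N2, 223 rose (46.7%) and 0 fell. Of 450 with a peak between 27 and 28 h, 2 rose (0.444%) and 64 fell (14.2%). The bin from 22 to 23 h held 322 genes, of which 20.8% rose, and the bin from 28 to 29 h held 425, of which 11.1% fell.

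**Figure D4:**
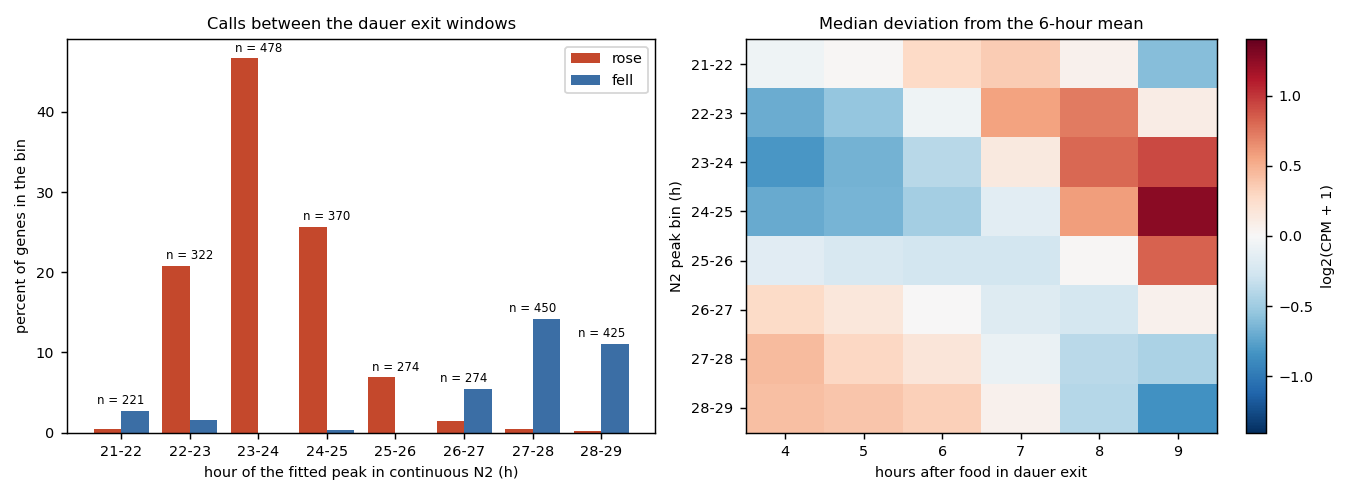
Left, percent of genes called higher (red) or lower (blue) between the dauer exit windows, by the hour of their fitted peak in continuous N2, with the number of genes per bin. Right, median deviation of log2(CPM + 1) from the mean of the 6 hours for each bin. Genes peaking at 22 to 23 h in N2 are high at 7 and 8 h of dauer exit, those peaking at 23 to 25 h are high at 8 and 9 h, and those peaking at 27 to 29 h are high at 4 and 5 h.

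The levels of the called genes were set beside the rest of the course, as a description of genes chosen for being high at 7 to 9 h. For the 770 genes that rose, the highest level at 7 to 9 h was in the median 94.7% of the highest at 10 to 22 h, and 335 of them had reached or passed it. For the 19 collagens that rose the median was 102%. For the 12 hedgehog-related genes it was 128%, with 9 at or above their later maximum. Of the 19 collagens 2 had reached under 10% of their later maximum, so a few collagens called here had only begun. The collagen genes as a family took 4.45% of counts at 10 h, 1.41% at 14 h and 6.29% at 19 h, so these 6 hours hold the ascent of the first of 2 rises seen in the course.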

How the data were processed

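RNA-seq was done on polyadenylated RNA of whole worms with a stranded mRNA kit, per the labels' protocols. The authors deposited raw counts, 1 whole number per gene and library, for 20182 genes and 45 libraries. Aligner, counter, strand setting and build: not given in the sources used here. Because of this, near-identical collagen copies and overlapping genes are uncertain. Symbols were matched by identifier (93.0%), and coordinates are those of the WBcel235 annotation.

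The test of the 6 libraries used edgeR 4.0.16 (R 4.3.3; filterByExpr, TMM, quasi-likelihood F-test, Benjamini-Hochberg adjustment). CPM used library totals. DESeq2 1.42.0, other scaling, no filter, hour as covariate or slope, windows without hours 6 and 7, each hour left out, and limma 3.58.1 (voom, added after seeing the data) were alternatives. The scripts were tested on simulated counts. There the libraries of a window were drawn as replicates with no change from hour to hour, unlike the real windows. The simulation therefore does not show how the window test behaves on successive hours. Nothing in the labels says that libraries came from separate cultures, so p-values measure the spread between these libraries. Library totals were 18521397 or more, and counting intervals are not given.

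The hours, members and gene lists were chosen with earlier results of these data known. Genes named are the 10 largest rises and 8 largest falls among called genes with separate windows and at least 10 CPM, up to 3 called members per list, and a fixed set. Others named, such as furrow collagens, wrt-10, col-42, col-176, fbn-1, let-653, myo-2, sec-24.1 and cdk-2, were added after their values were seen.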

Additional observations from a re-analysis of the deposited data

How the results depend on the processing

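The counts of calls depend on the setting. The adjusted p-values lie close to the threshold, and calls appear and vanish together. With no low-count filter, with hour as a covariate and with limma-voom, 0 genes rose or fell in any group (5586, 348 and 5126 genes at an unadjusted p under 0.05). The slope in hour gave 2685 genes that rose and 2527 that fell, with 43 collagens and 927 N2 wave genes rising and 5 ribosome and translation genes rising and 44 falling. Without hours 6 and 7 the values were 1980, 1591, 43, 917 and 3 rising in place of those. DESeq2 gave 2743 and 2080, with 53 collagens, 1107 wave genes, and 5 rising and 49 falling ribosome and translation genes, counted over all genes it tested. Requiring at least 1 on the log2 scale left 455 genes that rose (3.44%) and 150 that fell (1.13%), and 0 ribosome and translation genes in either direction. With one hour left out at a time, genes that rose ranged from 0 to 1633 and genes that fell from 0 to 1236, collagens from 0 to 46, ribosome and translation genes from 0 to 2 rising and 0 to 29 falling, and wave genes from 0 to 903. Scaling by library size alone gave 681 and 794, and DESeq2's size factors in edgeR gave 793 and 555. The cause of these differences was not tested.

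Of 101 named genes 77 lost their call with no filter, with the hour as a covariate and with limma-voom. The fitted difference changed sign beside the hour in mlt-10 (-0.45), nhr-25 (-1.23), bed-3 (-0.97), blmp-1 (-0.21), myrf-1 (-0.003), unc-54 (-0.091), myo-3 (-0.74) and egl-3 (0.062), under limma-voom in nhr-25 (-0.029) and with library size alone in elt-2 (-0.072). With an hour left out it ran from -0.35 (without 7 h) to 0.78 in nhr-23, from -0.63 (without 9 h) to 0.50 in nhr-25, from -0.24 (without 7 h, and -0.15 without 4 h) to 0.72 in myrf-1, and from -0.069 (without 6 h, and -0.035 without 9 h) to 0.108 in elt-2. None of these genes was called. Depth limits the genes near 0, such as the 14 collagens with no read in these hours. No paired analysis was possible because the labels give no replicate numbers and the hours of the windows differ.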

Other observations

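Lipid and reproductive genes were also read in the 6 libraries. Of 21 fatty acid synthesis genes 2 fell, sbp-1, for the sterol-regulated transcription factor of lipid genes, and mdt-15, its Mediator partner, and 0 rose. Over all tested genes 4.29% fell and 5.82% rose, and the median of the 21 was -0.27. The gene sbp-1 was at 92.7, 69.8 and 60.4 CPM at 4, 5 and 6 h and at 43.6, 29.6 and 31.1 CPM at 7, 8 and 9 h (-1.0, SE 0.197, edgeR adjusted p = 0.0476). The gene fasn-1, for fatty acid synthase, had a pulse across the border of the windows, at 689, 992 and 2028 CPM and then 2561, 1786 and 614 CPM (0.49, edgeR adjusted p = 0.575), and was picked after its values were seen. Of 30 germline genes 2 rose, glp-1 and syp-1, and 0 fell, with a median of 0.30. The number of germline risers is near the 5.82% over all tested genes. After TMM scaling, however, 14 of the 30 were wholly higher and 1 wholly lower, against 23.8% and 23.1% of all tested genes. DESeq2 called 10 of the 30 higher and 1 lower. The edgeR count therefore does not show that the germline group stayed level. Of 30 tested dauer and stress genes 1 rose, sod-4, and 0 fell, against 5.82% and 4.29% of all tested genes. The group moved both ways in DESeq2, which called 8 higher and 7 lower, against 2539 and 2034 of all 13229 tested genes. The edgeR counts therefore do not show that it stayed level. The gene daf-9, for the cytochrome P450 that makes the hormone dafachronic acid, was at 45.5, 34.4 and 32.4 CPM early and 24.8, 16.6 and 15.0 CPM late, with separate windows (-0.90, edgeR adjusted p = 0.0510).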
